A study of Mus musculus with 12 samples.

Results

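The 7 fatty acid elongase genes Elovl1 to Elovl7 were followed in mouse skin over the first day after injection of RNAdjuvant, an adjuvant made of non-coding RNA complexed with a cationic peptide. A member was any gene on the array whose probe set carried only that symbol in the platform annotation. Each of the 7 had exactly 1 such probe set, among 19938 named genes in all. The samples were skin biopsies of female Balb/c mice, hybridised 1 to an Affymetrix Mouse Gene 1.0 array. They form 4 groups of 3 samples, which the labels call biological replicates. One group of mice was left untreated. The others received RNAdjuvant in the dermis, at a dose labelled as 25 mg, a unit that was not checked and may be wrong, and their skin was collected 1.5 h, 6 h or 24 h later. The controls received no injection, and no group injected with carrier alone was analysed here. The labels do not say whether the samples of a group came from separate mice, so the p-values measure only the spread between these samples.

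Elongases carry out the first and rate-limiting step of the elongation cycle in the endoplasmic reticulum. They condense a fatty acyl-CoA with malonyl-CoA, which lengthens the chain by a pair of carbons. A ketoreductase (Hsd17b12), a dehydratase (Hacd1 to Hacd4) and an enoyl reductase (Tecr) complete each round. In skin the products enter the sebum made by sebaceous glands and the very long chain ceramides that seal the outer epidermis. The members differ in the chains they accept. Elovl6 lengthens palmitate to stearate, Elovl1, Elovl3 and Elovl7 act on saturated and monounsaturated chains, Elovl4 makes the ultra-long chains of epidermal acylceramides, and Elovl2 and Elovl5 act on polyunsaturated chains.

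Values are log2 intensities, on which a difference of 1 is a doubling. Array medians ran from 5.53 to 5.76, and the correlation over all probe sets was 0.98 to 0.987 between arrays of one group and 0.961 to 0.986 between arrays of different groups. The tissue label was borne out by the epidermal keratins Krt5 (11.9 to 12.15 over the 12 arrays) and Krt10 (12.39 to 12.67) and the dermal collagen Col1a1 (8.81 to 10.93). The interferon-stimulated gene Rsad2 stood at 5.03 to 5.40 in untreated skin, 6.66 to 7.92 at 1.5 h, 11.21 to 11.49 at 6 h and 8.83 to 9.47 at 24 h. Several arrays stood apart from the others of their group. The lymph node vessel gene Glycam1 measured 11.38 in replicate 1 at 1.5 h and 10.88 in replicate 1 at 6 h, against 3.87 to 4.46 in the other 10 samples. The muscle gene Myl2 measured 10.56 and 10.43 in replicates 1 and 2 at 1.5 h. At 24 h it measured 10.57 and 9.33 in replicates 1 and 3, against 4.29 to 6.88 in the other 8 samples. Muscle RNA was not confined to the samples high in Myl2, as Acta1 measured 12.68 to 13.15 over the 12 arrays. The mean of 11 muscle markers was 10.86 to 10.98 in untreated skin and 10.52 to 11.94 after treatment. In untreated replicate 2 the mean of 14 hair follicle markers was 8.16, against 5.54 to 6.36 in the other samples.

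Elovl6 fell at all 3 times, Elovl4 at 1.5 h and 24 h, and Elovl5 at 24 h. To show the sequence in front of these 3 genes, the promoter windows are printed 5′ to 3′ on the strand of the gene, from 250 bases before the annotated start to 50 bases after it. They come from RefSeq on GRCm38.p6 and lie at chr3:129532136-129532435 (plus strand) for Elovl6, chr9:83806256-83806555 (minus strand) for Elovl4 and chr9:77917115-77917414 (plus strand) for Elovl5. Capitals mark matches to the motifs named after them.
Elovl6: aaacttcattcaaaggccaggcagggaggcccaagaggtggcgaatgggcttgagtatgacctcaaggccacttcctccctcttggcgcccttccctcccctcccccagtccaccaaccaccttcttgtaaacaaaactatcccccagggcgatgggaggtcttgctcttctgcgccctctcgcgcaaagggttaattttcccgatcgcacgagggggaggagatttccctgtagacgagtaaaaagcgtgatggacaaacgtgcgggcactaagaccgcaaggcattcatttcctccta
Elovl4: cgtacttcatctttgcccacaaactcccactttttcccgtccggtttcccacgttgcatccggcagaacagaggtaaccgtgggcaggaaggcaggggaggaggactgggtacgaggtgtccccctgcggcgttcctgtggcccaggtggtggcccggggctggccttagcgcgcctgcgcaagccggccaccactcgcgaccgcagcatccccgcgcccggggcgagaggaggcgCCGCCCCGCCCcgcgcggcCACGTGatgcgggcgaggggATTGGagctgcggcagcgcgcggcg
Elovl5: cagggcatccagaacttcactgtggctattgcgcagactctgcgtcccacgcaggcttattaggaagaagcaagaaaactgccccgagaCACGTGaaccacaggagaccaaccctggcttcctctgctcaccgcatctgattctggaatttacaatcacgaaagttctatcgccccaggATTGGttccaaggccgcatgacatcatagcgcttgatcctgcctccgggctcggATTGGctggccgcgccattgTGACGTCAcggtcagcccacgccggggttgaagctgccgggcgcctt

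The motifs were searched on both strands in the promoter windows of RefSeq, 32851 in all. The motif CCAAT was in 37.41% of them, the GC box GGGCGG in 35.66%, the E-box CACGTG in 7.15%, the interferon-type repeat GAAANNGAAA in 3.443%, the cAMP element TGACGTCA in 1.79%, the sterol element TCACNCCAC in 1.242% and the direct repeat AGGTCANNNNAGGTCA, which liver X receptors bind, in 0.01522%. None of these motifs occurred in the Elovl6 window. The Elovl4 window held 2 copies of GGGCGG, which share bases, 1 of CACGTG that begins at position 6 counted from the start site as 1, and 1 of CCAAT at position 26. The Elovl5 window held 2 copies of CCAAT, 1 of CACGTG at position -161 and 1 of TGACGTCA at position 4. No motif of the set was thus in all 3 windows, since the Elovl6 window held none. The Elovl4 and Elovl5 windows both held CCAAT and CACGTG. A match is not evidence that a factor binds there. Windows were also matched for Elovl1, Elovl2 and Elovl7, and for none of the 6 genes with a window did the interferon-type, sterol or liver X receptor motif occur. Elovl3 was not matched.

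Against untreated skin, 2 of the 7 elongases fell and none rose at 1.5 h, 1 fell at 6 h and 3 fell at 24 h. The test was limma's moderated test, fitted over all 12 arrays and 19938 genes, two-sided, with Benjamini-Hochberg adjustment and a threshold of 0.05. Over all genes, 2.2% passed at 1.5 h (1.59% lower), 6.09% at 6 h (2.71% lower) and 3.36% at 24 h (0.808% lower). The median log2 change of the 7 elongases was -0.46 at 1.5 h, -0.29 at 6 h and -0.52 at 24 h, while that of all genes was 0.02, -0.04 and 0.00. At each time 4 of the 7 had all 3 treated samples below all 3 untreated samples, which 13.3%, 19.3% and 12.4% of all genes had at 1.5 h, 6 h and 24 h. A test of a change at any of the 3 times (limma's moderated F test) called 3 members, Elovl6 (adjusted p 0.000542), Elovl4 (0.0245) and Elovl5 (0.0498), where 11.4% of all genes were called. These comparisons share the untreated samples. Whole skin was measured, so fewer cells of a type and less RNA per cell cannot be told apart.

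**Figure D1:**
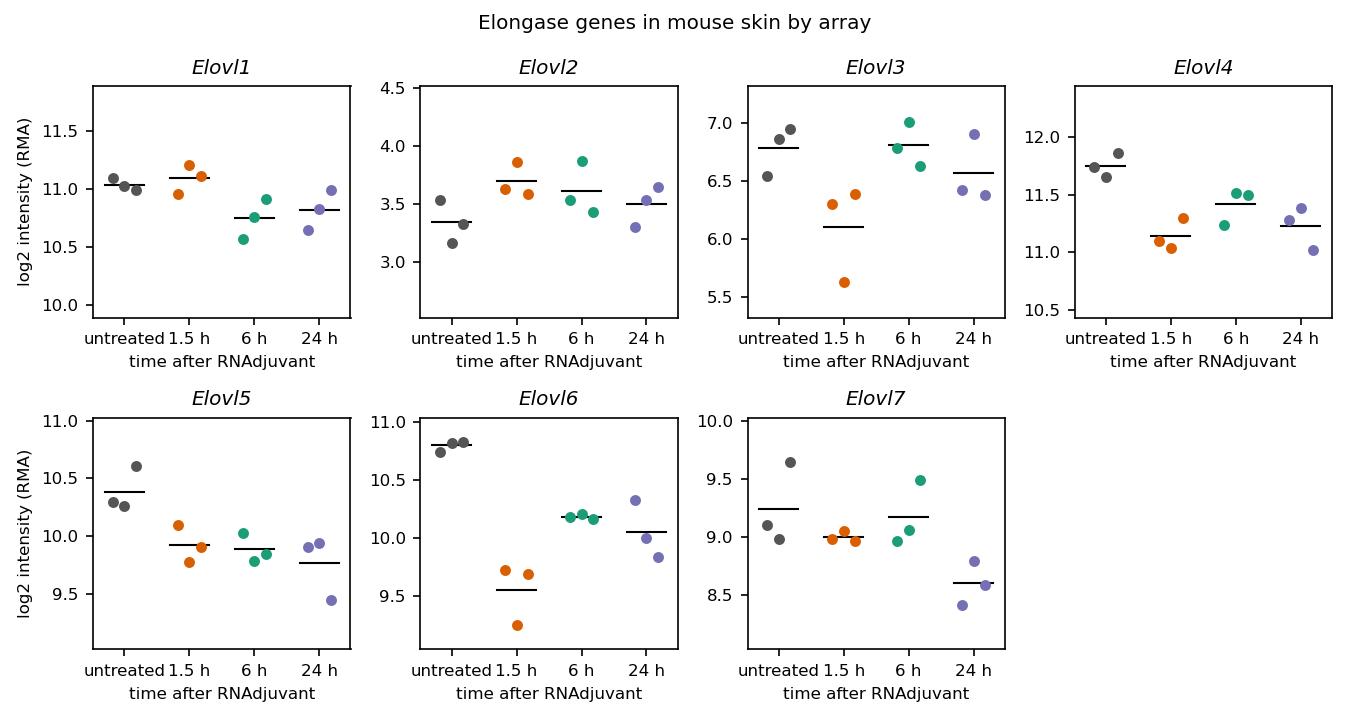
Log2 intensity (RMA) of each elongase (vertical axis, each panel spanning 2 log2 units) against time after RNAdjuvant, with 1 point for each of the 12 arrays and a bar at each group mean. The untreated points of Elovl6 (10.74 to 10.83) lie above all 9 treated points, the highest of which is 10.32, and those of Elovl4 (11.65 to 11.86) lie above a highest treated point of 11.52.

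Elovl6 (probe set 10495993, gene at chr3:129532386-129638495) had the largest change against untreated skin of the 7 genes. It is a target of the lipogenic factor SREBP-1c. Its log2 intensity was 10.74, 10.82 and 10.83 in the 3 untreated samples, 9.72, 9.25 and 9.69 at 1.5 h, 10.18, 10.20 and 10.16 at 6 h, and 10.32, 9.999 and 9.84 at 24 h. Every treated sample was below every untreated sample, and the 1.5 h samples were also below every sample of the later times. The means were 10.80 ± 0.05 in untreated skin, 9.55 ± 0.26 at 1.5 h, 10.18 ± 0.02 at 6 h and 10.05 ± 0.25 at 24 h (SD, n = 3 each). The log2 change was -1.25 at 1.5 h (95% interval -1.55 to -0.94, adjusted p 0.00105), which is 42.2% of the untreated intensity. At 6 h it was -0.61 (-0.92 to -0.31, adjusted p 0.021), or 65.3% of the untreated intensity, and at 24 h -0.74 (-1.05 to -0.44, adjusted p 0.00847), or 59.7%. With each array left out in turn, the calls at 1.5 h and 24 h held in all 12 fits, with adjusted p up to 0.00824 and 0.0476. The call at 6 h was lost without untreated replicate 1 (0.0534), 2 (0.0603) or 3 (0.0746) and without 6 h replicate 2 (0.0614) or 3 (0.0664).

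The fall of Elovl6 was deepest at 1.5 h and smaller at 6 h. The level at 6 h was 0.63 log2 units above that at 1.5 h (adjusted p 0.0135). That difference missed the threshold without 6 h replicate 2 (0.0534) or 1.5 h replicate 2 (0.0559). Between 24 h and 1.5 h the difference was 0.50 (adjusted p 0.084), and between 24 h and 6 h no difference passed. In the order of its 4 group means, the highest neighbours, untreated and 6 h, were the only adjacent pair of any elongase that passed the test.

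Elovl4 (probe set 10595392, gene at chr9:83778692-83806305), whose loss in mice breaks the epidermal water barrier and is lethal at birth, fell by less. Its log2 intensity was 11.74, 11.65 and 11.86 in untreated skin, 11.10, 11.04 and 11.30 at 1.5 h, 11.24, 11.52 and 11.49 at 6 h, and 11.28, 11.39 and 11.02 at 24 h. No treated sample reached the lowest untreated one. The means were 11.75 ± 0.10 in untreated skin, 11.15 ± 0.14 at 1.5 h, 11.42 ± 0.16 at 6 h and 11.23 ± 0.19 at 24 h (SD, n = 3 each). The log2 change was -0.60 at 1.5 h (95% interval -0.87 to -0.33, adjusted p 0.0288) and -0.52 at 24 h (-0.79 to -0.25, adjusted p 0.0375). At 6 h the value was -0.33 (-0.60 to -0.06, adjusted p 0.133). The 1.5 h call was lost without untreated replicate 1 (0.0661), 2 (0.0792) or 3 (0.121) and without 1.5 h replicate 1 (0.0876) or 2 (0.103). The 24 h call was lost without any 1 of the untreated samples (up to 0.151), without 6 h replicate 3 (0.0502), and without 24 h replicate 1 (0.0756) or 3 (0.146). With arrays centred on their medians or quantile normalized it was 0.0514 and 0.0576.

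Elovl5 (probe set 10587284, gene at chr9:77917365-77984519) lengthens the polyunsaturated chains derived from linoleic and linolenic acid. It measured 10.30, 10.26 and 10.60 in untreated skin, 10.10, 9.78 and 9.91 at 1.5 h, 10.03, 9.79 and 9.85 at 6 h, and 9.91, 9.94 and 9.45 at 24 h. All 9 treated samples were below the untreated ones. The means were 10.39 ± 0.19 in untreated skin, 9.93 ± 0.16 at 1.5 h, 9.89 ± 0.12 at 6 h and 9.77 ± 0.28 at 24 h (SD, n = 3 each). The log2 change at 24 h was -0.62 (95% interval -0.94 to -0.30, adjusted p 0.0369), or 65.1% of the untreated intensity. The values of -0.46 at 1.5 h (adjusted p 0.134) and -0.50 at 6 h (adjusted p 0.0665) did not pass. The 24 h call was lost without any 1 of the untreated samples (0.0664, 0.0636 and 0.162), without 1.5 h replicate 3 (0.0514) or 6 h replicate 3 (0.0526), and without 24 h replicate 3 (0.135), and was 0.0548 with arrays centred on their medians.

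Elovl3 (probe set 10463551, gene at chr19:46131897-46135694), expressed in sebaceous glands and hair follicles, is needed in mice for normal sebum and fur. It measured 6.54, 6.86 and 6.95 in untreated skin, 6.30, 5.63 and 6.38 at 1.5 h, 6.78, 7.01 and 6.63 at 6 h, and 6.42, 6.90 and 6.38 at 24 h. All 1.5 h samples were below all untreated and all 6 h samples. Against untreated skin the log2 values were -0.68 at 1.5 h (95% interval -1.11 to -0.24, adjusted p 0.104), 0.03 at 6 h (adjusted p 0.951) and -0.21 at 24 h (adjusted p 0.635), none of which passed. Elovl3 was 0.70 log2 units higher at 6 h than at 1.5 h (adjusted p 0.0369). Without 1.5 h replicate 2, the lowest array, that difference was 0.47 (adjusted p 0.138), and it also missed the threshold without 6 h replicate 1 (0.0651) or 2 (0.143).

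Elovl1 and Elovl7 are close relatives. Elovl1 (probe set 10507539, gene at chr4:118426874-118432953), a widely expressed source of very long saturated chains, measured 11.10, 11.02 and 10.99 in untreated skin, 10.96, 11.21 and 11.11 at 1.5 h, 10.57, 10.76 and 10.92 at 6 h, and 10.65, 10.82 and 10.99 at 24 h. Of the treated times, 6 h alone had all samples below the untreated ones. Its log2 values were 0.05 (95% interval -0.21 to 0.32, adjusted p 0.859) at 1.5 h, -0.29 (-0.55 to -0.03, adjusted p 0.176) at 6 h and -0.22 (-0.48 to 0.04, adjusted p 0.39) at 24 h. Elovl7 (probe set 10407072, gene at chr13:108214326-108287109) measured 9.10, 8.98 and 9.65 in untreated skin, 8.98, 9.05 and 8.96 at 1.5 h, 8.97, 9.06 and 9.49 at 6 h, and 8.41, 8.80 and 8.59 at 24 h. Its 24 h samples were below all 9 others. The 24 h value of Elovl7 was -0.64 (-1.03 to -0.26, adjusted p 0.0702), or 64% of the untreated intensity, and the values at 1.5 h and 6 h were -0.25 and -0.07 (adjusted p 0.499 and 0.828). The spread of Elovl7 in untreated skin, 0.36 log2 units (SD, n = 3), was the widest of the 7 genes there.

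Elovl2 (probe set 10408838, gene at chr13:41182382-41220403), which makes the longest polyunsaturated chains, was the only member below the median of all probe sets. It measured 3.53, 3.16 and 3.32 in untreated skin, 3.63, 3.87 and 3.59 at 1.5 h, 3.53, 3.87 and 3.43 at 6 h, and 3.30, 3.53 and 3.65 at 24 h. All 1.5 h samples were above the untreated ones, as for 11.8% of all genes. The log2 values of 0.35, 0.27 and 0.15 at 1.5 h, 6 h and 24 h did not pass (adjusted p 0.224, 0.274 and 0.635). The deposited values carry no detection call, so a level this low was not called absent or present.

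**Figure D2:**
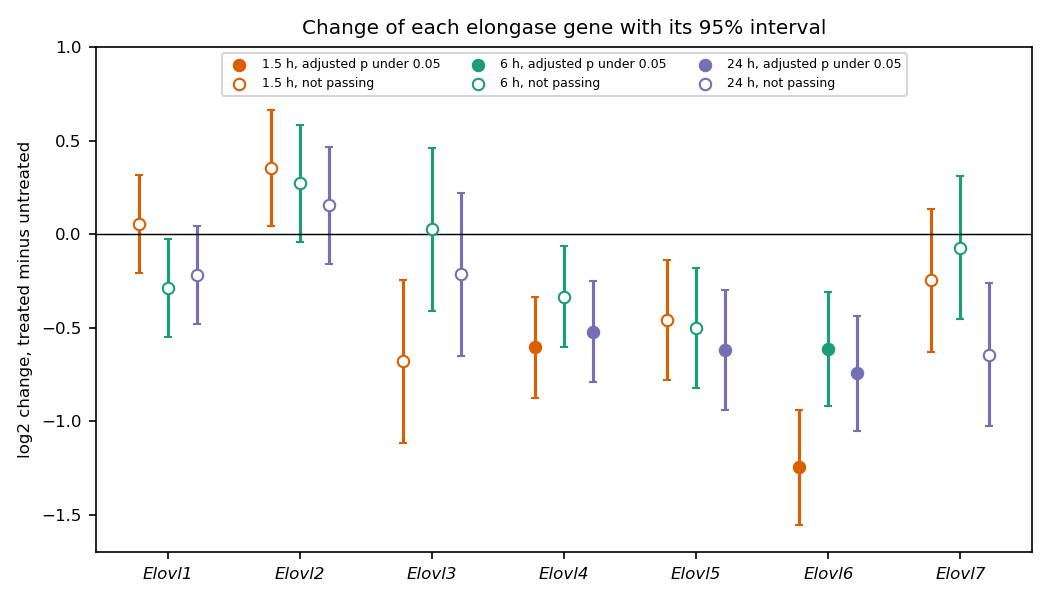
Log2 change of each elongase, treated minus untreated, at 1.5 h, 6 h and 24 h, with 95% intervals from limma. Filled points passed an adjusted p of 0.05 and open points did not, and the lowest point is Elovl6 at 1.5 h (-1.25).

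Between the treated times, 2 of the 7 elongases, Elovl3 and Elovl6, were higher at 6 h than at 1.5 h, where 13.3% of all genes passed (5.47% higher). For the others the log2 difference between 6 h and 1.5 h was -0.34 for Elovl1 (adjusted p 0.0775), -0.08 for Elovl2 (0.749), 0.27 for Elovl4 (0.168), -0.04 for Elovl5 (0.883) and 0.17 for Elovl7 (0.548). In limma, 0 of the 7 passed between 24 h and 6 h, with 1 at an unadjusted p under 0.05, where 3.44% of all genes passed. Likewise 0 passed between 24 h and 1.5 h, with 4 at an unadjusted p under 0.05, where 2.91% of all genes passed. The lowest adjusted p between 24 h and 6 h was that of Elovl7 (0.0948), with a difference of -0.57.

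**Figure D3:**
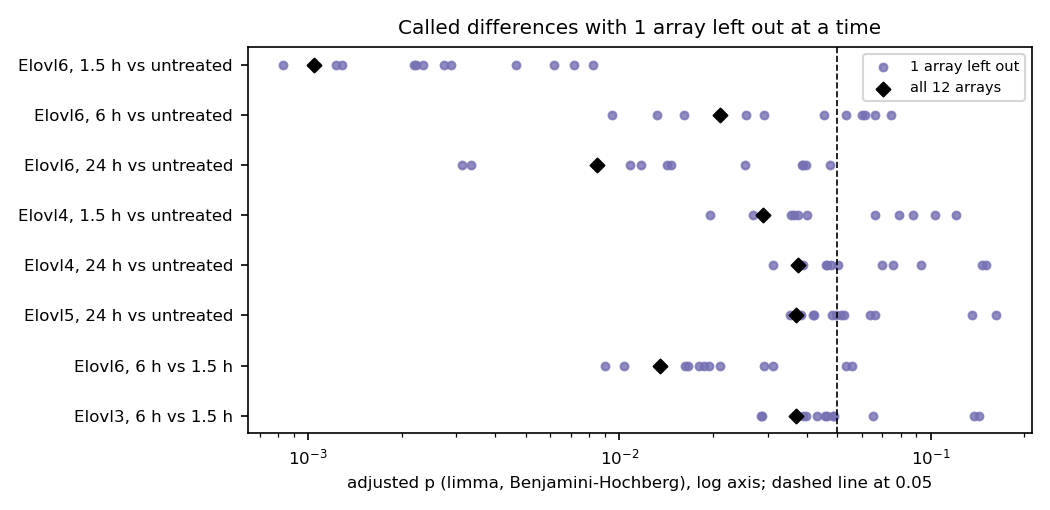
Adjusted p (limma, Benjamini-Hochberg, log axis) of the 8 differences called among the elongases, with all 12 arrays (diamonds) and with 1 array left out at a time (points), and a dashed line at 0.05. Only Elovl6 at 1.5 h and at 24 h has all 12 points left of the line.

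Among the enzymes that complete the elongation cycle, only a dehydratase passed the test against untreated skin. Of 7 measured, 1 fell at 1.5 h, Hacd2, and 0 passed in limma at 6 h and at 24 h, with 1 and 2 at an unadjusted p under 0.05. Hacd2 measured 9.90, 9.60 and 9.95 at 1.5 h, against 10.36, 10.29 and 10.41 in untreated skin. The groups did not overlap, and the log2 change was -0.53 (adjusted p 0.0261). That call held in 7 of 12 fits with an array left out, with adjusted p up to 0.107 without untreated replicate 3. The ketoreductase Hsd17b12 had log2 values of -0.36, -0.24 and -0.22 at 1.5 h, 6 h and 24 h (adjusted p 0.234, 0.349 and 0.489), and Tecr -0.14, -0.19 and -0.16, none of which passed. At 6 h against 1.5 h, Hacd2 was higher (0.43, adjusted p 0.0215) and Hacd1 lower (-0.91, adjusted p 0.0444).

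Genes of palmitate synthesis and of the malonyl-CoA pool did not pass at any single time against untreated skin. Of 10 measured, limma called 0 at each of 1.5 h, 6 h and 24 h, with 1, 3 and 1 at an unadjusted p under 0.05, and the median log2 change was 0.26, 0.39 and 0.08. Fatty acid synthase, Fasn, measured 11.18, 10.12 and 10.73 at 1.5 h, against 10.21, 10.37 and 10.66 in untreated skin. These groups overlapped, and the log2 values of Fasn at 1.5 h, 6 h and 24 h were 0.27, 0.45 and -0.03 (adjusted p 0.735, 0.444 and 0.978). The citrate lyase Acly had 0.33, 0.48 and -0.02, and the carboxylase Acaca, which makes malonyl-CoA, 0.43, 0.55 and -0.15. Mlycd, which removes malonyl-CoA, was called by the test of a change at any time (adjusted p 0.0255) and was lower at 6 h than at 1.5 h (-0.69).

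Among 8 desaturases, which place double bonds in the chains that elongases make, 1 passed against untreated skin. This was Scd4, which was 0.59 higher at 6 h (adjusted p 0.0426), where 6.09% of all genes passed. Scd4 was dim, with means of 4.02 in untreated skin and 4.61 at 6 h, below the median of all probe sets (5.63). At 1.5 h and at 24 h limma called 0, with 1 and 2 at an unadjusted p under 0.05. Scd1, the main stearoyl-CoA desaturase of skin, measured 12.78, 12.45 and 12.66 at 1.5 h, against 12.60, 12.58 and 12.65 in untreated skin. Its log2 values were 0.02, -0.04 and -0.08 at 1.5 h, 6 h and 24 h (adjusted p 0.96, 0.898 and 0.829). Scd3, a sebaceous gland desaturase, had -0.85, -0.17 and -0.66, with an adjusted p of 0.0862 at 1.5 h. Between treated times, Fads1 (-0.54) and Fads2 (-0.64) were lower at 6 h than at 1.5 h, and Scd2 was lower at 24 h than at 1.5 h (-0.84). Scd2 was called by the test of a change at any time (adjusted p 0.0255) and Scd4 was not (adjusted p 0.09).

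Of 16 transcription factors and cofactors of lipid synthesis, 1 passed against untreated skin. It passed at 6 h, a share near the 6.09% of all genes that passed at that time. The fatty acid receptor Ppara measured 6.61, 6.73 and 6.59 at 6 h, against 7.25, 7.22 and 6.997 in untreated skin, a log2 change of -0.52 (adjusted p 0.0175). At 1.5 h and 24 h limma called 0 of the 16, with 3 and 7 at an unadjusted p under 0.05. Srebf1, which encodes SREBP-1, had log2 values of 0.12, 0.27 and -0.07 at 1.5 h, 6 h and 24 h (adjusted p 0.632, 0.193 and 0.829). The liver X receptor gene Nr1h3 had 0.11, -0.09 and 0.44, and Pparg -0.44, -0.32 and 0.15, none of which passed.

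**Figure D4:**
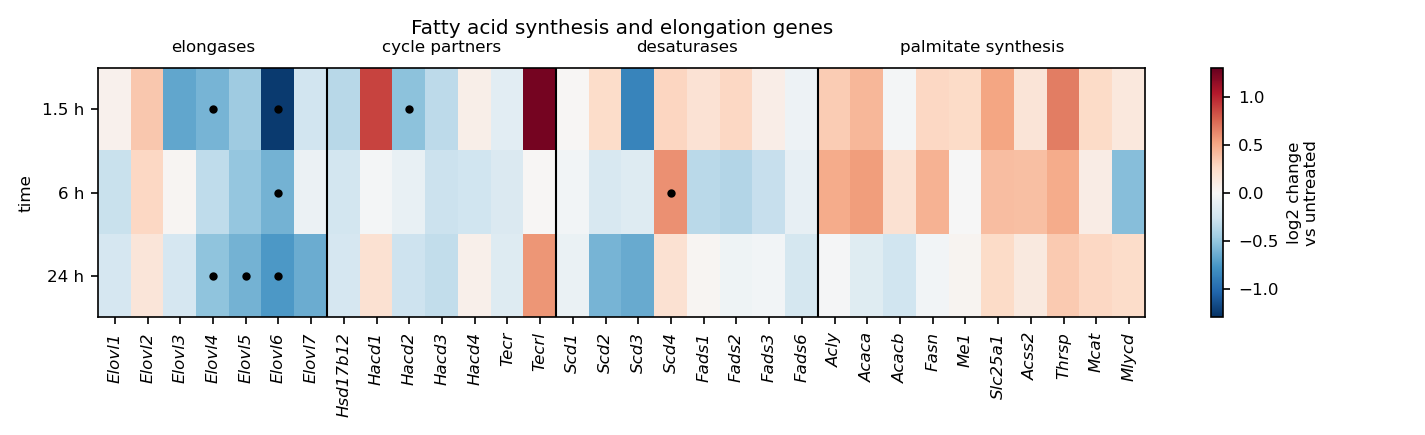
Log2 change against untreated skin (colour, red higher and blue lower) at 1.5 h, 6 h and 24 h for the elongases, the other enzymes of the elongation cycle, the desaturases and the palmitate synthesis genes, with dots on those at an adjusted p under 0.05. Elovl6 has a dot at all 3 times and the palmitate synthesis genes have none.

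The ceramide genes Cers4 and Fa2h fell further at 1.5 h than Elovl6, and both passed the test. Most ceramide and barrier genes did not pass at that time. Of 23 ceramide and barrier genes, 2 fell at 1.5 h, the ceramide synthase Cers4 and the fatty acid 2-hydroxylase Fa2h. The median log2 change of the 23 was 0.07, against 0.02 for all genes, of which 2.2% passed. Cers4 measured 8.56, 8.16 and 8.76 at 1.5 h, against 10.11, 9.96 and 10.12 in untreated skin, a log2 change of -1.57 (adjusted p 0.0011). Fa2h measured 9.29, 8.85 and 9.65, against 10.63, 10.73 and 10.75 in untreated skin, a log2 change of -1.44 (adjusted p 0.00595). Both groups were fully apart, and both calls held in all 12 fits with an array left out. At 6 h 1 ceramide gene rose (Sptlc2, 0.51) and 1 fell (Alox12b, -0.67), and at 24 h Cers4 (-0.78) and Alox12b (-0.63) fell.

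Of 13 wax and neutral lipid genes, 2 fell at 1.5 h, the wax synthase Awat2 (log2 change -1.48, adjusted p 0.0183) and the fatty acyl-CoA reductase Far2 (-1.26, 0.0247). At 6 h 1 rose, Lpin2 (0.55). Of 13 acyl-CoA synthetases and fatty acid transporters, 3 fell at 1.5 h, Acsl5 (-0.59), Acsbg1 (-0.67) and Slc27a6 (-0.83). Of 10 peroxisomal genes of very long chain breakdown, 1 fell at 1.5 h and again at 24 h, the acyl-CoA oxidase Acox3 (-1.08 and -0.72, adjusted p 0.00387 and 0.0146). Among 10 targets of liver X receptors, the phospholipid enzyme gene Lpcat3 fell at 1.5 h (-0.73) and the sterol transporter gene Abcg1 rose at 6 h (0.81). Among 14 cholesterol synthesis genes, Sc5d fell at 6 h (-0.60). Over the 10 lists of elongation, lipid synthesis and lipid use, which hold 119 genes besides the elongases, 10 fell and none rose at 1.5 h, or 8.4% of them, where 2.2% of all genes were called. At 6 h 3 fell and 4 rose, or 5.88% against 6.09% of all genes, and at 24 h 3 fell, or 2.52% against 3.36% of all genes, so both shares were near or below the background. Of the 10 falls at 1.5 h, 3 (Cers4, Fa2h and Acox3) were called in all 12 fits with an array left out; none of the 7 calls at 6 h and 3 at 24 h were.

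The pattern most like that of Elovl6 over the 12 arrays was that of the cytochrome P450 gene Cyp2g1 (Pearson r 0.981, or 0.928 after removing the group means). The steroid dehydrogenase gene Hsd3b6 (0.970, or 0.652 within groups) and Acox3 (0.955, or 0.772 within groups) followed. The 12 points fall into 4 groups that share treatment, so these values only describe likeness. Cyp2g1 measured 10.71, 10.17 and 10.57 at 1.5 h, against 12.20, 12.19 and 12.20 in untreated skin. Its log2 changes were -1.71, -0.66 and -1.02 at 1.5 h, 6 h and 24 h (adjusted p 3.02e-05, 0.00871 and 0.000311). Those of Hsd3b6 were -1.71, -0.85 and -1.04 (adjusted p 4.32e-05, 0.00199 and 0.000455). Cyp2g1 and Hsd3b6 both belong to the list of sebaceous gland markers used here, and their calls at all 3 times held in all 12 fits with an array left out. That list was chosen with earlier results of these data known, so membership in it is only a description.

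For the other elongases the genes most alike differed. They were Cdc14b (r 0.972), Fzd3 (0.954) and Acox3 (0.947) for Elovl4, and Ift80 (0.963), Tgfbr3 (0.961) and Prex2 (0.925) for Elovl5. For Elovl3 they were Galnt14 (0.933), Masp1 (0.923) and Acot1 (0.915), and for Elovl1 Lipn (0.971), Gjb5 (0.968) and Hopx (0.961). For Elovl7 they were Sec14l4 (0.917), Qtrt2 (0.894) and Ercc6 (0.869), and for Elovl2 Arrdc4 (0.847), Bpifa3 (0.839) and Slc51b (0.803). Acox3 was the only gene named for more than 1 elongase.

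Marker lists of several cell types moved with time in the same samples. The mean log2 intensity of the 13 sebaceous gland markers was 7.82 to 7.90 in untreated skin, 7.35 to 7.60 at 1.5 h, 7.67 to 7.68 at 6 h and 7.39 to 7.60 at 24 h, so no treated sample reached the untreated range. Of these 13, 4 fell at 1.5 h (Cyp2g1, Hsd3b6, the melanocortin receptor gene Mc5r and the lipid droplet gene Cidea), 2 at 6 h and 2 at 24 h. The median log2 change of the 13 was -0.04 at 1.5 h, -0.14 at 6 h and -0.30 at 24 h. At 1.5 h the 9 markers not called had values between -0.17 (Apoc1) and 0.37 (Plin5), with Krt79 at -0.04 and Defb6 at 0.21. The mean of 14 hair follicle markers was 6.00 to 8.16 in untreated skin, 5.54 to 5.77 at 1.5 h, 5.63 to 5.75 at 6 h and 5.63 to 6.00 at 24 h. The 8.16 came from untreated replicate 2, with 6.00 and 6.36 in the other untreated samples, and 24 h replicate 3 reached 6.00. The glandular epithelium markers were Krt7, Krt8, Krt18, Krt19, Csn3, Wfdc2, Wfdc18, Elf5 and Cited1. For these 9 the untreated means lay between 5.59 and 5.76. Their means at 1.5 h lay between 7.35 and 8.43, and those at 24 h between 7.12 and 7.64. The 6 h samples were split. Replicate 1, high in Glycam1, had a mean of 8.16, while replicates 2 and 3 had 5.63 and 5.54, within or below the untreated range. Whether the samples differed in the tissue they held was not tested. Of the 9, limma called 4 higher at 1.5 h, 0 at 6 h (2 at an unadjusted p under 0.05) and 2 at 24 h. Of all genes, 2.2%, 6.09% and 3.36% passed at these times in either direction. 

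Of 9 keratinocyte markers, 2 fell, both at 24 h, and of the hair follicle markers 1 fell at 1.5 h and 2 at 6 h. The mean of the 9 keratinocyte markers was 11.24 to 11.32 in untreated skin, 11.04 to 11.29 at 1.5 h, 10.95 to 11.17 at 6 h and 10.93 to 11.002 at 24 h. The mean of 11 adipocyte markers was 8.69 to 8.88, 8.82 to 9.23, 8.09 to 9.09 and 8.59 to 9.07 at the same times, and limma called 0 of the 11 at each time, with 2, 2 and 0 at an unadjusted p under 0.05. The mean of 7 fibroblast markers was 10.19 to 10.53 in untreated skin, 9.92 to 10.15 at 1.5 h, 10.18 to 10.45 at 6 h and 9.68 to 10.46 at 24 h, so the 1.5 h samples were all below the untreated ones. In limma 0 of these 7 passed at each time, with 3, 0 and 0 at an unadjusted p under 0.05. The mean of 9 leukocyte markers was 7.26 to 7.72 in untreated skin, 7.67 to 8.38 at 1.5 h, 7.50 to 8.09 at 6 h and 7.84 to 8.13 at 24 h. Of these 9, 2 rose at 1.5 h, 1 at 6 h and 2 at 24 h. Beside these marker counts, 2.2% of all genes passed at 1.5 h, 6.09% at 6 h and 3.36% at 24 h, in either direction. The part of these cell types in the falls of Elovl6, Elovl4 and Elovl5 was not tested.

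Without the 2 samples in which Glycam1 was high, Elovl6 kept its calls at all 3 times. Elovl4 at 1.5 h then had an adjusted p of 0.0762.

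**Figure D5:**
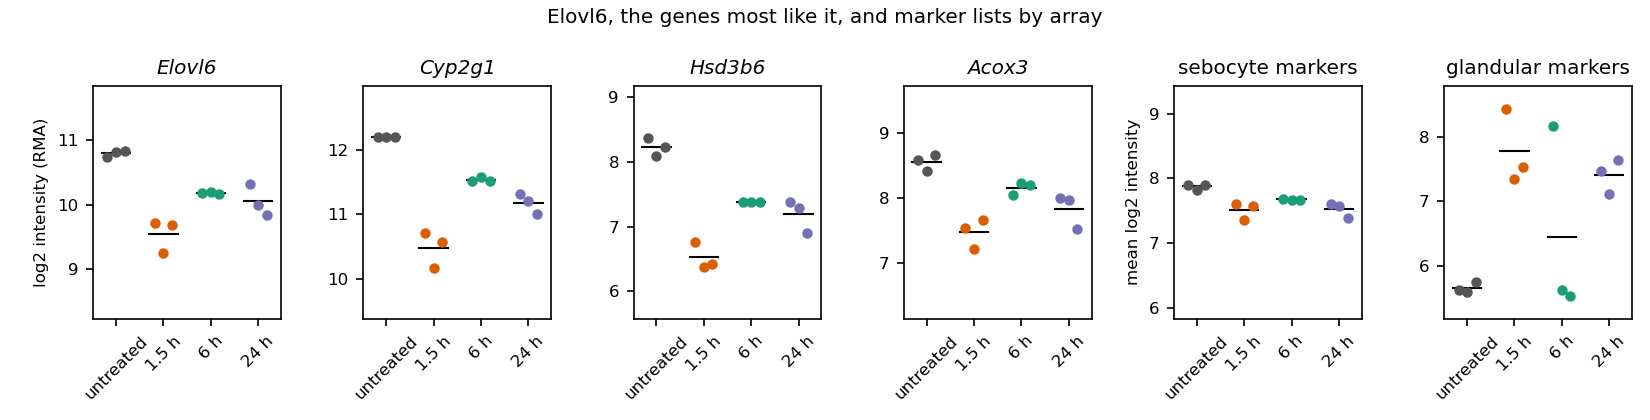
Log2 intensity by array of Elovl6, of the 3 genes most like it, and the mean log2 intensity of the sebaceous gland and glandular markers, against time (each panel spans 3.6 log2 units, bars are group means). All untreated points of Elovl6, Cyp2g1, Hsd3b6, Acox3 and the sebaceous gland mean lie above all treated points, and the glandular mean at 1.5 h and 24 h lies above its untreated range of 5.59 to 5.76.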

How the data were processed

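The authors deposited log2 intensities. Per the submitters' processing notes, these come from RMA and Affymetrix Expression Console 1.1. As usually run, RMA subtracts background, equalises array distributions and summarises probes, which narrows differences between arrays. RNA was amplified from whole skin before labelling, per the labels' protocols. Of 35556 probe sets, 23410 were annotated, 21789 of them with 1 symbol and 1621 with several, which were not used. For 999 genes with more than 1 probe set the brightest on average was taken, leaving 19938 genes. Array numbers limit the precision.

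limma 3.58.1 in R 4.3.3 fitted all 4 groups at once (8 residual degrees of freedom), with Benjamini-Hochberg adjustment over all genes, two-sided. The fit was tested on simulated data of independent normal values, which held no arrays that stand apart as some do here. Named were the 7 elongases, genes of 4 nearby pathway lists, in other lists the 3 largest called changes and the largest the other way, and the 3 genes most correlated with each elongase. Members, lists and markers were chosen with earlier results of these data known. The alternatives were each array left out, a replicate block, 2 other scalings, other filters, priors and weights, and a stricter threshold. Promoters came from RefSeq. Same-numbered samples did not deviate together in most cases (correlation over 0.1 in 4 of 18 pairs), so numbers were not taken as pairs.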

Additional observations from a re-analysis of the deposited data

Results flagged for a closer look

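Each value below is a log2 difference between 2 times after treatment that itself passed limma's test (Benjamini-Hochberg adjusted p under 0.05), so the change against untreated skin differed between those times. The genes were the elongases and the genes named beside them. Genes were listed only where they passed, so their number says nothing about these genes as a set. Over all genes, 13.3% passed at 6 h against 1.5 h, 3.44% at 24 h against 6 h and 2.91% at 24 h against 1.5 h.

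At 6 h against 1.5 h, the differences among elongases were 0.70 for Elovl3 and 0.63 for Elovl6. Higher at 6 h were also Hacd2 (0.43), Acsl5 (0.33), Slc27a6 (0.60), Cers4 (1.04), Sptlc2 (0.40), Fa2h (1.09), Far2 (0.92), Lpin2 (0.56), Acox3 (0.69), Cyp2g1 (1.05), Hsd3b6 (0.86) and Rsad2 (4.05). Lower at 6 h were Hacd1 (-0.91), the desaturase genes Fads1 (-0.54) and Fads2 (-0.64), the malonyl-CoA decarboxylase gene Mlycd (-0.69) and Alox12b (-0.76).

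At 24 h against 6 h, Mlycd was higher (0.79) and Rsad2 lower (-2.15). At 24 h against 1.5 h, Cers4 (0.78), Cyp2g1 (0.69), Hsd3b6 (0.67) and Rsad2 (1.90) were higher, and Scd2 (-0.84) and Alox12b (-0.71) lower. With each array left out in turn, 6 of the 19 differences at 6 h against 1.5 h were called in all 12 fits (Cers4, Alox12b, Fa2h, Cyp2g1, Hsd3b6 and Rsad2). The same held for 1 of 2 at 24 h against 6 h (Rsad2) and for 2 of 6 at 24 h against 1.5 h (Cyp2g1 and Rsad2). No rule for single outlying samples in groups of 3 was used to pick these genes. Arrays that stood apart on marker genes are named in the Results.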

How the results depend on the processing

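No called difference of an elongase changed sign under any alternative. The elongases called at 1.5 h (2) were 1 to 2 with an array left out, and 1 without the 2 samples high in Glycam1, with values raised to a floor of 5 and at an adjusted p under 0.01. At 6 h (1) they were 0 to 2, then 2 with arrays centred on their medians, without dim probe sets, with a trend and robust prior and with array weights, and 0 at 0.01. At 24 h (3) they were 1 to 3, then 1 when centred, with the floor, with only the 2 groups compared and at 0.01. At 6 h against 1.5 h (2) they were 0 to 2, then 1 without the Glycam1-high samples, with the floor and with 2 groups only, 0 at 0.01, and 3 when centred and without dim probe sets. At 24 h against 6 h they were 0 to 0 and at 24 h against 1.5 h 0 to 0, then 1 with array weights (Elovl6). At any time (3) they were 1 to 3, then 1 with the floor and at 0.01. Among extra calls were Elovl5 at 6 h when centred (adjusted p 0.0492), Elovl7 at 24 h without dim probe sets (0.0493), and Elovl1, lower at 6 h than at 1.5 h, when centred (-0.48, 0.0218) and without dim probe sets (0.0478). Of 84 scaled values of members, 4 changed sign, none of them called.

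Over all genes, 439 were called at 1.5 h, 97 to 597 with an array left out, 198 without the Glycam1-high samples, 121 with the floor, 696 with array weights and 65 at 0.01. At 6 h 1215 were called, 712 to 1364 with an array left out and 540 at 0.01, and at 24 h 670, 423 to 756 and 361. At 6 h against 1.5 h 2646 were called, 949 to 2951 with an array left out, 1432 without the Glycam1-high samples, 4609 when centred and 767 at 0.01. At 24 h against 6 h 685 were called, 142 to 877 with an array left out, 1133 when centred, 1054 without dim probe sets, 377 with the floor, 247 with 2 groups only and 149 at 0.01. At 24 h against 1.5 h 580 were called, 321 to 653 with an array left out and 309 at 0.01. At any time 2274 were called, 1189 to 2409 with an array left out, 1382 with the floor and 733 at 0.01. Centring shifted the median gene by 0.10 at 1.5 h and by -0.13 at 6 h against 1.5 h. At 1.5 h the lower share of called genes was 72.2%, 43.1% when centred and 56.8% after quantile normalization, and at 6 h against 1.5 h 58.8%, 83.5% and 64.5%. At 24 h against 6 h centring gave 19.8%, against 41.0%. The cause of these shifts was not tested.

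With the replicate number as a block, 2 elongases were called at 1.5 h and at 24 h, where Elovl4 was lost (adjusted p 0.0589), 1 at 6 h against 1.5 h, where Elovl3 was lost (0.0519), and 2 at any time. Over all genes the block gave 442, 1136 and 670 calls at 1.5 h, 6 h and 24 h. Same-numbered samples correlated in their deviations at -0.215 to 0.334, over 0.1 in 4 of 18 pairs. The highest was that of replicate 1 at 1.5 h and 6 h, the samples high in Glycam1. No detection call was available, so dim probe sets such as those of Elovl2 and Scd4 limit what can be read.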
